A study of Rattus norvegicus with 12 samples.

Results

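The comparison described here set the hippocampus of rats given KA against that of rats given PBS, both housed alone. The labels write KA without explaining it; kainic acid is assumed, an excitatory amino acid that provokes seizures, and PBS, phosphate-buffered saline, was given to the controls. The study crossed KA or PBS with housing after treatment, alone or in an enriched cage, and its title asks whether enrichment reduces neuronal injury from seizures. Each of its 12 arrays carried total RNA from a pool of hippocampi of 3 to 4 animals, and there were 3 pools in each of 4 groups. The 6 arrays compared were those labelled KA isolated and PBS isolated, 6 of 12 in all. Rats of the PBS isolated group received PBS on postnatal day 20 and were then kept in individual cages for 10 days before they were killed. Rats of the KA isolated group received KA on postnatal day 20 and were likewise kept in individual cages for 10 days. Individual housing was therefore shared by treated and control animals. Rats of the enriched groups were also treated on postnatal day 20, and were kept 8 to a large cage. The housings thus differed in company as well as in enrichment. Strain, sex, dose and litter are not given in the labels, and no label says whether a given rat had a seizure. Pooling hides the spread between animals, so every p-value below measures the spread between pools.

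Kainic acid excites neurons through ionotropic glutamate receptors, and the hippocampus, above all its CA3 and CA1 pyramidal fields and the hilus, is known for its sensitivity to such seizures. In rodents of this age the neurons are generally held to be less easily killed than in adults. Microglia, the resident phagocytes of the brain, and astrocytes are known to alter their gene expression for days to weeks after seizures, with more complement, antigen presentation and lysosomal genes in microglia and more intermediate filaments in astrocytes.

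A value in the text is a probe set signal, the brightness of the set of oligonucleotides for a transcript on a linear scale. Differences are KA minus PBS on the scale log2(signal + 17), which understates the change of dim genes, and folds are those of signal + 17. Of 15866 probe sets other than controls, the 9520 with the highest mean over the 12 arrays were tested, which left out those whose mean level was below a signal of about 46.9. The groups are called non-overlapping where every KA pool lay above every PBS pool, or every one below. A probe set passed where its limma p, after Benjamini-Hochberg adjustment over these 9520, was under 0.05. The 6 arrays were alike in level: over all 12 arrays the median signal ran from 70.06 to 74.1, and pairs of isolated arrays correlated at 0.985 to 0.989 within groups and 0.983 to 0.989 between them. Markers of hippocampal neurons were bright. The vesicular glutamate transporter gene Slc17a7 lay between 2084 and 2550, the dentate granule cell marker Prox1 between 225 and 248, and the CA1 marker Wfs1 between 700.3 and 991. The pool PBS isolated 1 stood apart in choroid plexus genes. Transthyretin, Ttr, a choroid plexus product, had a signal of 2719 there, 254.5 in PBS isolated 2 and 87.2 in PBS isolated 3. The enriched pools PBS enriched 2 and KA enriched 3 stood apart in microglial genes, and they enter here through the estimate of the spread.

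Of the 9520 probe sets, 1 passed (0.0105%): Anp32a, which fell after KA. No probe set passed in the other direction. At an unadjusted p under 0.05 there were 191 higher (2.01%) and 219 lower (2.3%), 410 in all (4.31%). That total is near the share this threshold gives where nothing differs. The groups did not overlap at 494 probe sets that were higher (5.19%) and 535 that were lower (5.62%), 1029 in all (10.8%). Where nothing differs, 3 pools separate from 3 others with a probability of 0.1, so lack of overlap alone is common. The share above 0 was 47.7%, the median difference was -0.01, the 5th and 95th percentiles were -0.19 and 0.18, and the median SE was 0.099. Most of the hippocampal transcriptome thus differed little between the groups. Past 1.5-fold there were 16 probe sets higher (0.168%) and 3 lower (0.0315%), and the 2 extremes were Cd74 at 1.45 and Anp32a at -1.25. A simulation with this design called changes of 0.5 on the log2 scale at 62.7% of 67 probe sets. It called changes of 1 at 95.5% of 67. In all, 185 simulated probe sets were called, and many calls ease the adjusted threshold, whereas here 1 passed. The simulated noise was also normal and independent between probe sets. Those shares therefore do not give the rate of detection in these data, where Cd74 at 1.45 did not pass (limma adjusted p = 0.85).

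**Figure D1:**
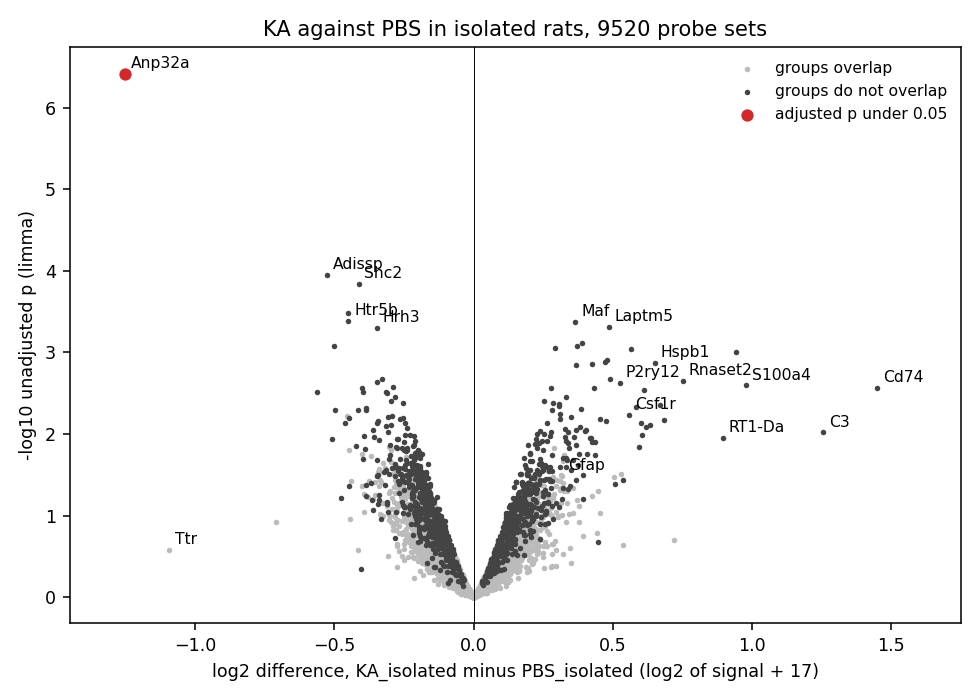
Each point is 1 of the 9520 probe sets, with its log2 difference between KA isolated and PBS isolated pools on the x axis and the -log10 of its unadjusted limma p on the y axis. Anp32a alone passed, at -1.25; Cd74 and C3 lie farthest to the right, at 1.45 and 1.26 (dark points: groups without overlap).

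Anp32a encodes a small acidic nuclear protein that inhibits protein phosphatase 2A, belongs to a complex that blocks histone acetylation, and takes part in caspase activation. Its signal was 385.5, 331.2 and 458.6 in the 3 PBS pools and 167.5, 162.2 and 132.5 in the 3 KA pools. Every KA pool was therefore well below every PBS pool. The means were 392 ± 63.9 and 154 ± 18.9 (SD, n = 3 pools each), a log2 difference of -1.25 (SE 0.13, limma adjusted p = 0.0036) or 2.38-fold lower. Anp32a passed at every setting tried, between -1.36 and -1.11. The array has 1 probe set for the gene. The enriched groups give a frame for these levels. Signals were 126.7, 132.4 and 158.7 after PBS and 115.7, 83.7 and 98.4 after KA in enriched rats, so the PBS isolated pools were the highest of the 12. The KA difference in enriched rats was -0.43, and the difference between the housings was 0.82 (SE 0.19), which did not pass (limma adjusted p = 0.76).

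The relatives and partners of Anp32a were near 0. Anp32b was 0.07 and Anp32e was -0.01 and 0.14 on its 2 probe sets, none past the threshold. Among 24 genes of the Anp32, Set and protein phosphatase 2A list on the array, 23 were tested, 1 passed (Anp32a) and the median was -0.01. The phosphatase subunits Ppp2ca, Ppp2cb and Ppp2r1a were at -0.05, -0.01 and 0.03. Ppme1, the methylesterase that removes the methyl group from the catalytic subunit, was the other member of the list without overlap between the groups, at -0.21. The upstream sequences of Anp32a and of 3 genes of the immune lists described below are shown. The genes are the one that passed, the invariant chain and a chain of class II, and a receptor of the microglial list. The sequences are the 250 bases before the RefSeq start of each gene (GRCr8), read 5′ to 3′ on the gene's strand. Capitals mark CCAAT, the box bound by NF-Y, and GAGGAA, the core recognised by the myeloid factor PU.1, each with its reverse complement, ATTGG or TTCCTC.
Anp32a (chr8:71724328-71724577, + strand): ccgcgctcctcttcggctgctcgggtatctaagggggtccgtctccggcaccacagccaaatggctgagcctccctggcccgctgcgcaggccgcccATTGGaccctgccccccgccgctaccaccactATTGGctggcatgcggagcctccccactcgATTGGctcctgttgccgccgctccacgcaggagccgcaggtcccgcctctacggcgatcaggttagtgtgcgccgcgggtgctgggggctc
Cd74 (chr18:56526956-56527205, + strand): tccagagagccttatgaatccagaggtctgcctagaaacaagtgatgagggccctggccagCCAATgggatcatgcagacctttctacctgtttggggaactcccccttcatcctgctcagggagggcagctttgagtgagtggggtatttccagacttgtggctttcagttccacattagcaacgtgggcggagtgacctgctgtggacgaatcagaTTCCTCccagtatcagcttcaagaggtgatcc
RT1-Da (chr20:4515165-4515414, + strand): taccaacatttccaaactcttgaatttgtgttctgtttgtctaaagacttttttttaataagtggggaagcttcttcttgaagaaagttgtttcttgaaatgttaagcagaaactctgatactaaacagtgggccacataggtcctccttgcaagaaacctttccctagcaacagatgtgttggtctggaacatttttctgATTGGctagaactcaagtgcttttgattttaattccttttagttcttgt
Csf1r (chr18:56834129-56834378, + strand): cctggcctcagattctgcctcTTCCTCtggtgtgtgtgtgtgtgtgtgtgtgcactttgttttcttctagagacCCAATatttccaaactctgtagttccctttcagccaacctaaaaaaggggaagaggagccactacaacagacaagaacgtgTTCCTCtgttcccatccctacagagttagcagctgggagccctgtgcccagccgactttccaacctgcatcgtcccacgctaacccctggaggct
The Anp32a window held 3 CCAAT boxes, all in the reverse orientation, and 0 copies of GAGGAA. Csf1r held 2 copies of GAGGAA and 1 of CCAAT, Cd74 held 1 of each, and RT1-Da held 1 CCAAT. Of all 27457 windows of the table, 34.3% held CCAAT and 23.2% held GAGGAA. Windows were found for 17 of the 25 microglial genes on the array, and 9 of these (52.9%) held GAGGAA. It occurred in 14 of 24 windows of the phagocyte lysosome genes (58.3%), 2 of 9 of the complement genes and 4 of 16 of the antigen presentation genes. CCAAT occurred in 11 of those 16 antigen presentation windows (68.8%), 8 of the 17 microglial windows (47.1%), 11 of the 24 lysosomal ones (45.8%) and 1 of the 9 complement ones (11.1%). Windows of 15 reactive astrocyte genes held CCAAT in 3 cases and GAGGAA in 3. These are letter matches in 1 window per gene and were not tested.

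Most genes of microglia and of innate immunity had a difference above 0, although none of them passed. For groups of genes, 1 probe set per gene was used, that of the highest mean, and all genes of a list on the array were counted, because a dim gene can enter the tested set through the arrays where it is high. Over all 10411 named genes on the array, 48.6% had a difference above 0, 5.26% were higher without overlap, 5.38% were lower without overlap, and the median was 0.00. Of 25 microglial receptor and signalling genes, 19 were above 0, 11 were higher without overlap and 0 lower, and the median was 0.33. The list had been extended with genes that earlier results had shown, Maf and Msn; without them, 17 of 23 were above 0 and 9 were higher without overlap. The summed signal of the list was 1697 to 1759 in the PBS pools and 2161 to 2380 in the KA pools. In pooled tissue, more cells of a type and more RNA per cell cannot be told apart.

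Csf1r, the receptor that keeps microglia alive, had signals of 207, 209.5 and 201.3 after PBS and 300.8, 353.1 and 284.1 after KA. The KA pools were all higher, by 0.56 (SE 0.17, limma adjusted p = 0.999), or 1.47-fold. P2ry12, the ADP receptor of surveying microglia, was 119.5, 127.1 and 95.5 after PBS and 166.6, 174.2 and 170.6 after KA. Its 2 probe sets gave 0.52 and 0.53, again without overlap. The Fc receptor gamma chain Fcer1g (0.59) and its partner in signalling Tyrobp (0.40) were also higher without overlap. So were the tetraspanin Cd53 (0.43) and the low-affinity receptor Fcgr2b (0.87). The transcription factor Maf was at 0.36 without overlap on its brightest probe set. Its others, below the filter, were at -0.17 and 0.07 with overlap. Fcgr2b was dim, at 7.05 to 12.8 after PBS and 27.7 to 47.7 after KA. Other defining genes of microglia did not separate the groups. Tmem119 was at -0.07, Cx3cr1, the fractalkine receptor, at 0.17, Coro1a at -0.06 and Cd14 at -0.05. The 2 probe sets of Aif1, which encodes Iba1, disagreed: one was at 0.63 without overlap and the other, the brighter, at 0.03 with overlap.

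Complement genes had the highest median of any list. Of 13 on the array, 11 were above 0, 6 were higher without overlap and 0 lower, with a median of 0.40. C3, the central component that tags targets for phagocytosis, had signals of 28.7, 27.9 and 29.5 after PBS and 100.1, 110.2 and 70 after KA. It was a dim gene in the controls and lay clearly higher in each KA pool, by 1.26 (SE 0.41, limma adjusted p = 0.999), or 2.39-fold. C1qa, a chain of the initiator C1q, was 159.4, 171.4 and 179 after PBS and 316.8, 319.4 and 224.1 after KA. The difference was 0.69 (SE 0.21), and that of C1qb was 0.67, both without overlap. C1qc was higher by 0.20 with overlapping groups, and the proteases C1r (0.40) and C1s (0.30) and the inhibitor Serping1 (0.63) were dim but did not overlap. The C3a receptor gene C3ar1 was at -0.26 with overlap.

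Of 18 antigen presentation genes, 14 were above 0, 8 were higher without overlap and 1 lower (Tap2, a dim gene), with a median of 0.17. Cd74, the invariant chain of class II molecules, had signals of 28.4, 39.6 and 49.2 after PBS and 125.3, 187 and 101.9 after KA. The lowest KA pool was far above the highest PBS pool, and the difference was 1.45 (SE 0.39, limma adjusted p = 0.85), or 2.73-fold. Among the chains of class II molecules, RT1-Da was 32.3, 27.4 and 41.9 after PBS and 66.8, 96.4 and 70.2 after KA, a difference of 0.89, and RT1-Ba, below the filter, was 20.1, 4.59 and 9.39 against 42.1, 67 and 51. RT1-DMa and RT1-DMb, which load peptide onto class II, were higher by 0.24 and 0.19 without overlap. B2m, the light chain of class I, was bright and higher by 0.31, at 995.7 to 1120 after PBS and 1222 to 1421 after KA. The class II transactivator Ciita was at 0.07, and RT1-Db1, RT1-CE16 and RT1-CE5 were at -0.43, -0.04 and -0.17, all with overlap. Genes of this family are close copies, and probes may read more than 1 of them.

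The phagocyte lysosome list had 25 of 27 genes above 0, 14 higher and 1 lower without overlap, and a median of 0.19. These were bright genes with small differences. Cathepsin S, Ctss, the microglial protease that trims the invariant chain, was 760.3, 752.6 and 795.4 after PBS and 1005, 1055 and 937.2 after KA, a difference of 0.37. Npc2, which carries cholesterol out of lysosomes, was 506.6, 516.1 and 459.4 against 660.4, 810.1 and 592.7, a difference of 0.45. In both genes the groups were well apart. Laptm5, a lysosomal membrane protein of blood-derived cells and microglia, was 106.1, 91.7 and 103.6 after PBS and 130.5, 147.6 and 165 after KA (0.48, SE 0.11, limma adjusted p = 0.59). Mpeg1 (0.43), Gpnmb (0.48), Grn (0.36), Lyz2 (0.33) and Ctsh (0.28) were likewise higher without overlap. Apoe, which astrocytes also make in quantity, was at 0.05 with overlap, and Lamp1 and Lamp2, found in the lysosomes of all cells, were at 0.08 and 0.13 with overlap. The cytokine, chemokine and NF-kappaB list had 21 of 31 genes above 0 and a median of 0.07. Without overlap, 2 were higher, the receptors Tnfrsf1a (0.43) and Ifngr1 (0.15), and 1 was lower. These counts are near the shares of all named genes, 5.26% higher and 5.38% lower without overlap.

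**Figure D2:**
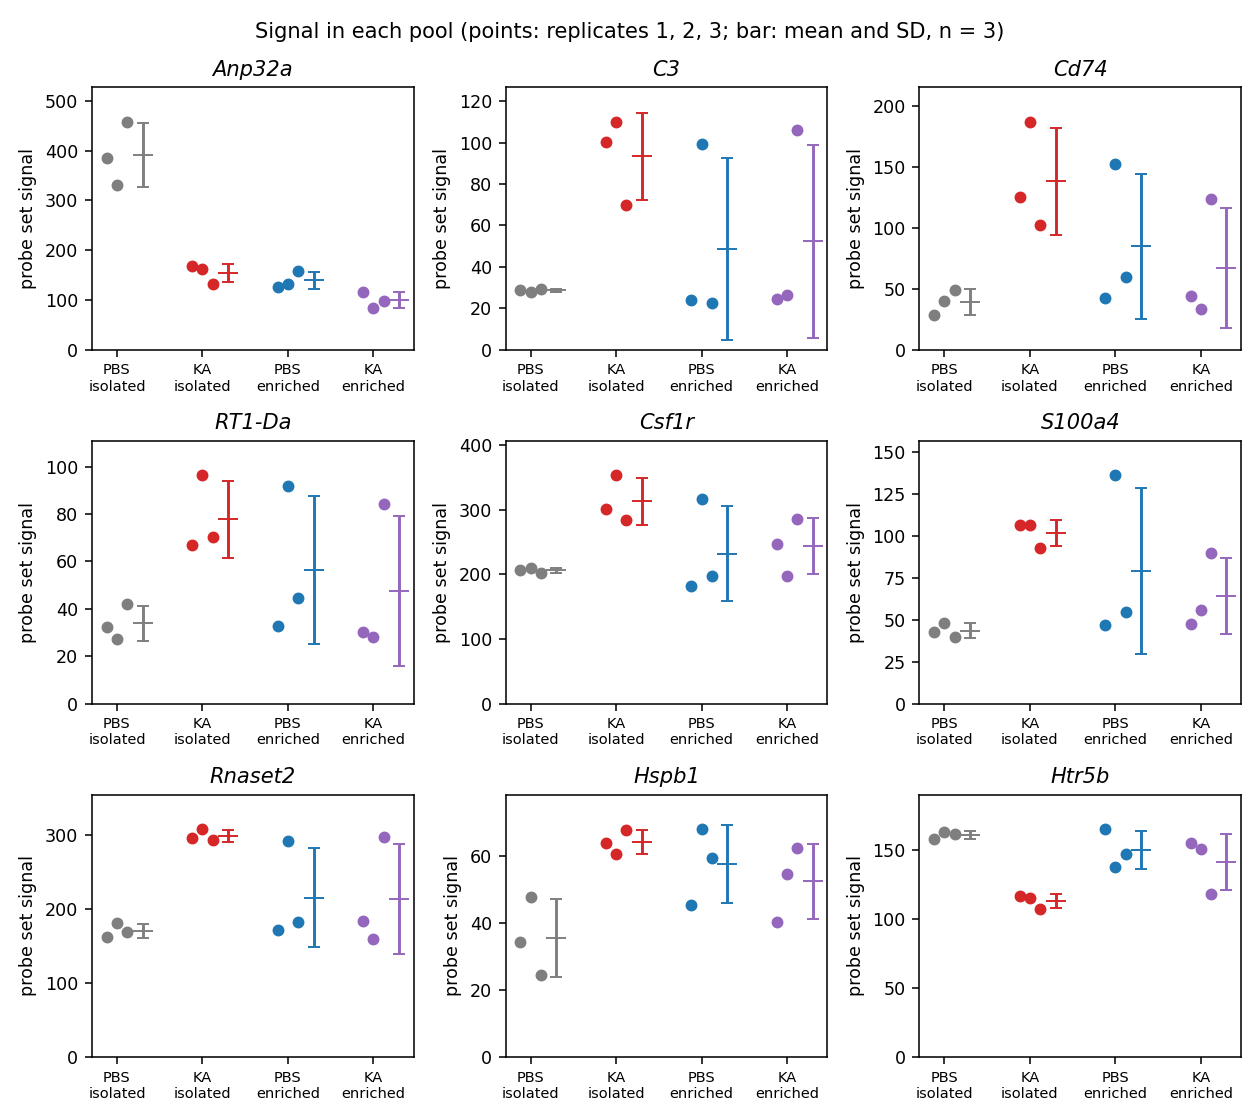
Probe set signal of 9 genes in each of the 12 pools, with the group mean and SD (n = 3 pools) beside the points; each axis starts at 0. Anp32a is highest in the 3 PBS isolated pools, Htr5b is lower in all 3 KA isolated pools, and the other 7 genes are higher in all 3 KA isolated pools than in the PBS isolated pools, while 1 of 3 pools in each enriched group is high for C3, Cd74, RT1-Da and Rnaset2.

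The other higher genes of smallest p included several found in phagocytes. S100a4, a calcium-binding protein of motile cells, was 42.4, 48.2 and 39.8 after PBS and 106.4, 106.6 and 93.1 after KA. The KA pools were tightly grouped and far above the PBS pools, with a difference of 0.98 (SE 0.26, limma adjusted p = 0.85). Rnaset2, a lysosomal ribonuclease, was 162.1, 181.1 and 169 against 295.9, 308 and 293.1 (0.75, SE 0.20). Msn, a member of the microglial list that links membrane to actin, was higher by 0.48, and Cebpd, an inflammatory transcription factor, by 0.49. Serinc2 was higher by 0.56, Gipc1 by 0.39, Ehd4 by 0.37 (0.12 with overlap on another tested probe set) and Reep6 by 0.29. On the tested probe sets all were otherwise without overlap, with none past the threshold. Further probe sets below the filter overlapped, at 0.31 for Msn, 0.25 and 0.10 for Cebpd and 0.41 for Ehd4. The spread of such genes was not the same in the 4 groups. Over the 47 tested genes of the microglial, complement, antigen presentation and lysosome lists, the median SD of the log2 values was 0.087 in PBS isolated and 0.12 in KA isolated pools, but 0.17 in each enriched group. For all genes it was 0.094, 0.093, 0.088 and 0.12 in PBS isolated, KA isolated, PBS enriched and KA enriched pools. The adjusted p-values rest on the spread within all 4 groups. Where only the 6 isolated arrays were fitted, 5 probe sets passed: S100a4 (limma adjusted p = 0.014), Rnaset2, Anp32a and C3 (each 0.016), and 1 without a gene name (0.94, adjusted p = 0.023). Each of these passed only in that fit or in a fit without the 2 enriched pools named above, apart from Anp32a.

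The level of these lists was also taken in each pool, over all their genes on the array. The mean over the 25 microglial genes, relative to the PBS isolated mean, lay between -0.05 and 0.04 in the PBS pools and was 0.23, 0.35 and 0.28 in the KA pools. For the 13 complement genes the PBS pools were between -0.11 and 0.14 and the KA pools at 0.41, 0.50 and 0.29, and for the 27 lysosomal genes the KA pools were at 0.19, 0.29 and 0.19. KA isolated 2 was the highest of the KA pools in each of the 3. In enriched rats the microglial mean was -0.01, 0.21 and 0.00 after PBS and 0.08, 0.01 and 0.255 after KA, so a high pool occurred in either treatment. Markers of blood cells varied in level over the isolated pools. The red cell genes Hbb and Alas2 lay between 2743 and 3359 and between 135 and 200.5, the T cell genes Cd3d and Cd3e between 2.24 and 9.89 and between 10.1 and 26.2, and the granulocyte gene S100a8 between 0.33 and 1.87. The summed signal of the blood list of 15 genes was 3162 to 3886 after PBS and 3240 to 3610 after KA. The part of blood cells, meninges or dissection in these differences was not tested; the meningeal list summed to 2192 to 3147 after PBS and 2495 to 3132 after KA, and the endothelial list to 2178 to 2317 and 2168 to 2225.

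**Figure D3:**
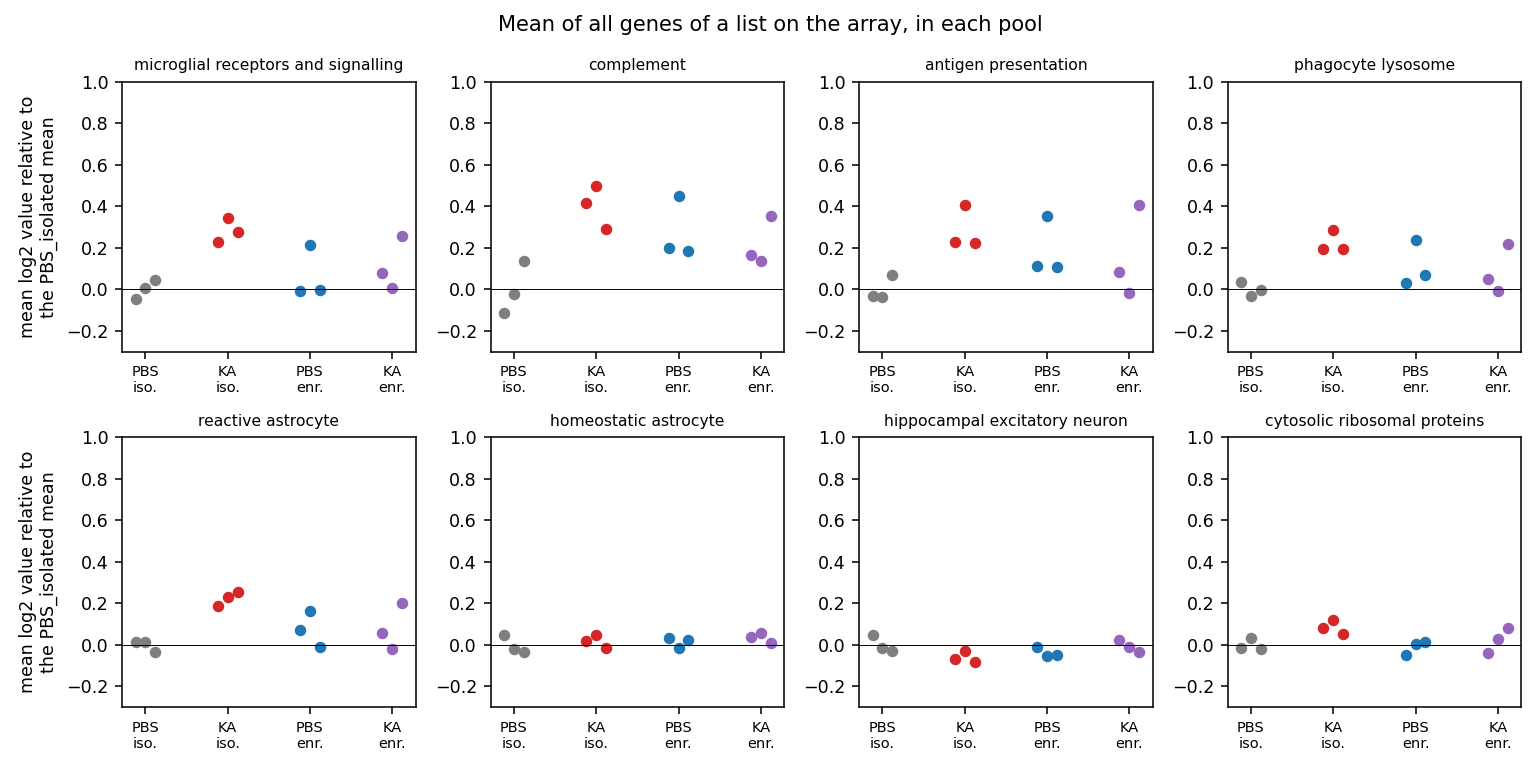
Mean log2(signal + 17) over all genes on the array of 8 lists in each of the 12 pools, relative to the mean of the PBS isolated pools; points are replicates 1, 2 and 3. The 3 KA isolated pools lie above the 3 PBS isolated pools in the microglial, complement, antigen presentation, lysosome and reactive astrocyte lists, and PBS enriched 2 and KA enriched 3 lie high in the same 5.

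Genes of reactive astrocytes were also above 0 in most cases. Of 18 on the array, 15 were above 0, 5 were higher without overlap and 0 lower, with a median of 0.24. Gfap, the intermediate filament whose increase defines reactive astrocytes, was 2142, 1823 and 1774 after PBS and 2518, 2611 and 2051 after KA. The lowest KA pool was below the highest PBS pool, and the difference was 0.32 (SE 0.13, limma adjusted p = 0.999). Vimentin, Vim, overlapped too, at 0.28. Hspb1, a small heat shock protein of stressed astrocytes, was 34.3, 47.7 and 24.5 against 64.1, 60.7 and 67.8, a difference of 0.65 (SE 0.16) with no overlap. A2m (0.37), S100a10 (0.24), S100a6 (0.23) and the dim Serpina3n (0.37) were also without overlap, and Lcn2, a strong marker in injury, was dim at 3.26 to 14.4 after PBS and 13.9 to 19.8 after KA. Genes of resting astrocytes had a median of 0.01 over 15 genes; the gap junction gene Gja1 was higher without overlap (0.14, and 0.27 on its other tested probe set), Gjb6 lower (-0.28), and the glutamate transporter Slc1a2 was at -0.05. The brightest probe set of the water channel Aqp4 was at 0.20, separated only by 980.7 in the lowest KA pool against 980.3 in the highest PBS pool, and its others were at 0.13 and -0.06 with overlap. Oligodendrocyte genes were flat: 0 of 14 were without overlap, the median was -0.01, and Mbp, the main myelin protein, was at -0.03 and -0.06 on its 2 probe sets.

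**Figure D4:**
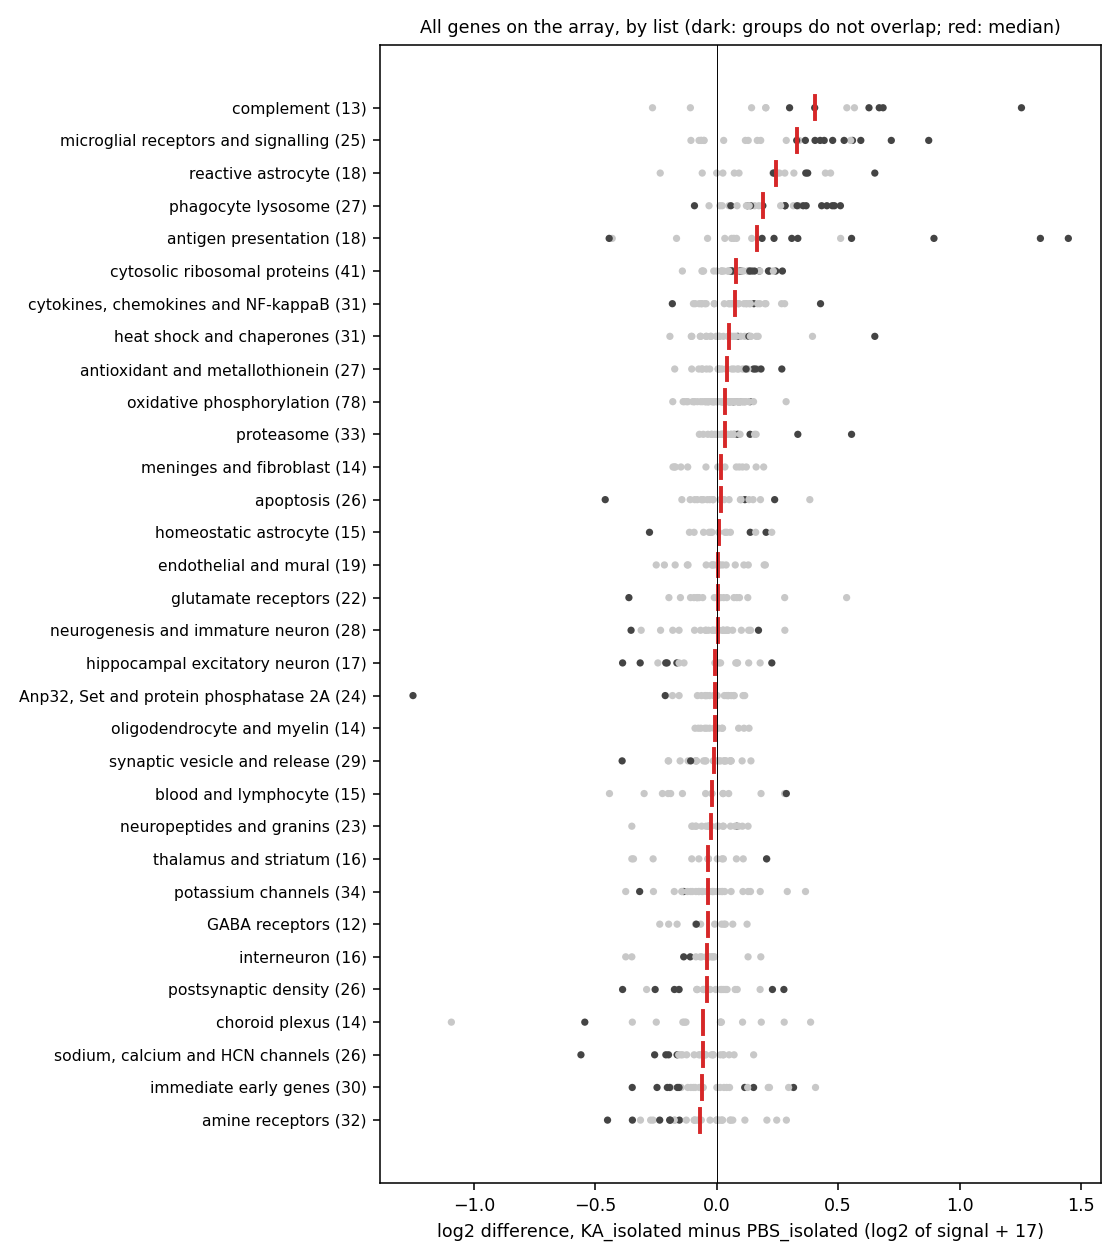
Log2 difference between KA isolated and PBS isolated pools of each gene on the array, by list, with the number of genes in parentheses; dark points are genes whose groups do not overlap and red bars are list medians. Complement, microglial, reactive astrocyte, lysosome and antigen presentation genes have the highest medians, from 0.40 down to 0.17, and the other lists have medians between -0.07 and 0.08.

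Markers of neurons were mixed. Of 17 genes of hippocampal excitatory neurons, 8 were above 0, 5 were lower and 1 higher without overlap, and the median was -0.01. For all named genes the shares were 48.6% above 0, 5.38% lower and 5.26% higher without overlap. The 5 lower genes were Wfs1, Fibcd1 and Itpka, which mark or are strong in CA1 pyramidal cells, Camk2a, the alpha subunit of the synaptic kinase CaMKII, and Crym. Wfs1, an endoplasmic reticulum protein, was 817.4, 981.3 and 991.1 after PBS and 748.2, 700.3 and 777 after KA. All KA pools were lower; the difference was -0.32 (SE 0.09, limma adjusted p = 0.85), and a second probe set gave -0.28 with overlap. Camk2a was 1121, 980.3 and 1274 against 918.8, 889.2 and 754.3, a difference of -0.39 on the brightest of its 3 probe sets; the others gave -0.16 and 0.00 with overlap. Fibcd1, Itpka and Crym were at -0.20, -0.21 and -0.16. Pou3f1, also a CA1 marker, was at -0.01 with overlap, and the 1 gene higher without overlap was Ociad2 (0.23). Of granule cell markers, Prox1 was at 0.02, Calb1 at 0.13 and Neurod1 at 0.18, all with overlap. Slc17a7 (0.09) and Nptx1 (0.08), carried by most excitatory neurons, overlapped as well.

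Interneuron genes had 2 of 16 above 0 and a median of -0.04. Gad1, which makes GABA, on its brightest probe set, was 1130, 1108 and 1115 after PBS and 1068, 995.7 and 1042 after KA, a difference of -0.11, and the fast-spiking channel gene Kcnc2 was at -0.14, with -0.27, -0.07 and 0.04 on its other probe sets; these were the 2 lower without overlap. The markers of interneuron classes were near 0 with overlap: Pvalb -0.01, Sst -0.06, Vip -0.04, Npy -0.03 and Cck -0.02. The kainate receptor subunits Grik1, Grik2, Grik3, Grik4 and Grik5, the targets of KA, were at -0.15, 0.02, -0.20, 0.08 and 0.09, all with overlap. Among 22 glutamate receptor genes, 1 was lower without overlap, the NMDA receptor subunit Grin3a (-0.36), and the median was 0.00. GABA receptor genes had 1 of 12 lower without overlap, the extrasynaptic subunit Gabrd (-0.08). Over all named genes on the array, 5.38% were lower without overlap.

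Receptors for amines held the lower genes of smallest p after Anp32a among the lists. Of 32 on the array, 13 were above 0, 6 were lower and 0 higher without overlap, and the median was -0.07. Among all named genes, 48.6% were above 0, 5.38% were lower and 5.26% higher without overlap. The serotonin receptor gene Htr5b had signals of 158.1, 163.6 and 161.5 after PBS and 116.9, 115.5 and 107.8 after KA. Pools of a group differed little and the groups lay well apart, with a difference of -0.45 (SE 0.10, limma adjusted p = 0.59), or 0.73-fold. Hrh3, the presynaptic histamine receptor, was 199.9, 193.8 and 194.8 against 156, 145.9 and 150, a difference of -0.35 (SE 0.08), but its second probe set was at 0.00 with overlap. The other lower genes without overlap were all for serotonin receptors: Htr1a (-0.23), Htr1b (-0.19), Htr2c (-0.19, and -0.08 with overlap on another probe set) and the dim Htr1f (-0.15). Htr7, Htr5a and Htr3a were at 0.02, -0.06 and -0.13 with overlap, and no dopamine or muscarinic receptor gene separated the groups.

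Channel and synapse genes showed isolated members. Of 26 sodium, calcium and HCN channel genes, 6 were above 0 and 5 were lower without overlap: Scn1a (-0.20), Scn2a (-0.16), Scn3a (-0.21) and Scn3b (-0.26), which are sodium channel subunits, and the dim calcium channel Cacna1h (-0.56). Scn3b was 940.1, 827.2 and 996.7 after PBS and 806, 742 and 753.4 after KA. The KA pools were lower in each case, by a small margin. Potassium channel genes had 2 of 34 lower without overlap, with a median of -0.04. Genes of synaptic vesicles and release had 2 of 29, with a median of -0.01. Both counts are near the 5.38% of all named genes that were lower without overlap. Of 26 postsynaptic density genes on the array, 10 were above 0, 4 were lower and 2 higher without overlap, and the median was -0.04. Among the 4 lower were Dlg4 (-0.17), which encodes PSD-95, Shank1 (-0.25) and Homer1 (-0.16), and Homer3 (0.28) was among the 2 higher. Other genes low in the KA pools by the smallest p were Adissp (-0.53, SE 0.10, limma adjusted p = 0.45), the neuronal adaptor Shc2 (-0.41), the mitochondrial ribosomal protein Mrps11 (-0.50), Tshz2 (-0.33), the mitochondrial carrier Slc25a27 (-0.35, and -0.12 with overlap on another probe set), Depp1 (-0.40), Tatdn2 (-0.31), Ivd (-0.28), which breaks down leucine, the somatostatin receptor Sstr4 (-0.30) and the polyadenylation factor Cpsf4 (-0.39). None of these passed, and among tested probe sets all but the 1 named second one were without overlap. A further probe set of Slc25a27, below the filter, was at -0.44 with overlap.

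Immediate early genes, which neurons induce within minutes of activity, were mixed. Of 30 on the array, 13 were above 0, 3 were higher and 6 lower without overlap, with a median of -0.06. The shares of all named genes were 48.6% above 0, 5.26% higher and 5.38% lower without overlap. Arc, which remodels synapses, was 279.8, 241.4 and 226.2 after PBS and 185, 188.2 and 201.2 after KA. The groups did not overlap, and the difference was -0.35 (SE 0.13, limma adjusted p = 0.999). Egr1 (-0.16), Junb (-0.20), Nr4a3 (-0.19), Rgs2 (-0.25) and Homer1 (-0.16) were the other 5; of the other tested probe sets of Homer1, none was without overlap, and they gave 0.03, -0.33 and 0.02. The 3 higher were Jun (0.15 on its brightest probe set, with 0.09 on another, overlapping, and -0.13 on the dimmest, which was lower without overlap), the dim Egr3 (0.32) and Bdnf, a neurotrophin, which was 113.3, 104.6 and 109.1 against 115.3, 120 and 123 (0.12). Fos was below the filter, at 41.2, 41.6 and 23.6 after PBS and 30.1, 34.4 and 29.7 after KA.

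The comparison was set beside the same contrast in enriched rats, which shares no array with it. Of the 191 probe sets higher at an unadjusted p under 0.05 in isolated rats, 85 (44.5%) were above 0 in enriched rats, where 48.7% of all probe sets were. Of the 219 lower, 85 (38.8%) were below 0 in enriched rats. Their medians were 0.28 and -0.25 in isolated rats and -0.02 and 0.03 in enriched rats. Over all probe sets the differences of the 2 housings correlated at -0.04. The difference of the KA effect between the housings passed at 0 of 9520 probe sets by limma (smallest adjusted p = 0.19). At an unadjusted p under 0.05 there were 473 of the 9520, near the share that this threshold gives where nothing differs. For single genes, Cd74 was at 1.45 in isolated and -0.28 in enriched rats, C3 at 1.26 and 0.08, Csf1r at 0.56 and 0.09, Htr5b at -0.45 and -0.08, and Cpsf4 at -0.39 and 0.41.

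**Figure D5:**
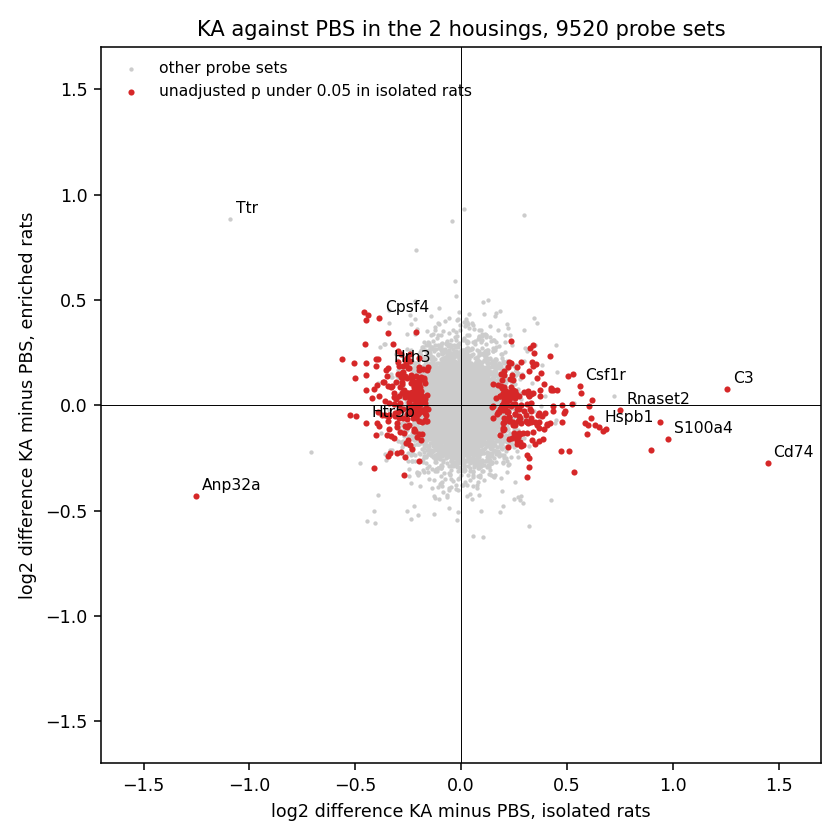
Each point is 1 of the 9520 probe sets, with the log2 difference between KA and PBS in isolated rats on the x axis and in enriched rats on the y axis; red points have an unadjusted p under 0.05 in isolated rats. The red points spread along the x axis around 0 on the y axis, with Anp32a at -1.25 and -0.43 and Cd74 at 1.45 and -0.28.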

How the data were processed

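RNA of 12 pools of rat hippocampus was measured on single-colour Affymetrix-type oligonucleotide arrays. The deposited values are probe set signals, an intensity on a linear scale from 0.0036 to 5591 over 15923 probe sets; a summary method, not given in the sources used here, made them from the probes. Each array's mean without the lowest and highest 2% was 150.03 in the values themselves, so nothing was normalized again. Controls (57) were left out, and log2(signal + 17) was taken, 17 being the 20th percentile. The top 60% by mean over 12 arrays entered limma 3.58.1 (R 4.3.3; lmFit, eBayes), with a mean per group over all 12 arrays (13.1 degrees of freedom), two-sided, Benjamini-Hochberg over 9520 probe sets, threshold 0.05. The number of arrays, 3 a group, limits the precision. The fit was tested on simulated data.

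Gene names came from the array annotation: 12789 probe sets had 1 symbol, 312 several (not named) and 2822 were not listed. Of the first, 12754 matched a RefSeq gene; 8061 tested probe sets were named, for 6923 genes. Promoters are from RefSeq. The genes named were those that passed, the 14 higher and 14 lower of smallest p, up to 4 members of each list, the Anp32 family and 12 fixed genes; other list members named for their overlap, their role or as counterexamples were chosen after their values were seen. The comparison, lists and tests were chosen with earlier results of these data known. Replicate numbers come from the titles; same-numbered pools deviated with correlations of 0.051, 0.062 and 0.20, so they were not taken as pairs. Alternatives were another pseudocount, filter, scaling, array set, weights, spread model, probe set rule and leaving out each pool.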

Additional observations from a re-analysis of the deposited data

How the results depend on the processing

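Anp32a was the 1 probe set that passed in all settings but 2: 5 passed with only the 6 isolated arrays, and 12 without KA enriched 3 and PBS enriched 2 together. That last setting was chosen after seeing the data; the 2 pools were picked for high microglial signal, so it understates the spread of such genes, and it adds Cd74, RT1-Da, Aif1, Tmem176a, Tmem176b, Anxa3 and Htr5b to the 5. With any 1 isolated pool left out the count was 1 to 1. With a replicate block it was also 1; pool 2 of PBS deviated most like pool 1 of KA (0.084), so not every pool was closest to its own number. List medians over the tested genes, some of which (C3, Cd74, RT1-Da) passed the filter through the groups where they are high, moved by more than the spread between pools as follows. The microglial median, 0.33, was 0.39 with a pseudocount of 1, 0.25 with 50 and 0.52 for the top 40% of probe sets, and 0.28 to 0.34 with 1 pool left out. The complement median, 0.68, was 0.40 without a filter, and the reactive astrocyte median, 0.24, was 0.17 with a pseudocount of 50. The lysosome median, 0.18, was 0.16 to 0.24 with 1 pool left out. These 5 medians were above 0 in every setting. Of 2976 values for named probe sets, 2966 stayed on the same side of the threshold and 10 passed in place of not passing. Direction was not part of that count, and some values that did not pass changed sign between settings. The brighter Aif1 probe set ran from -0.16 to 0.14 and kept its sign in 16 of 19 settings. Ttr ran from -2.11 to 0.25 and kept its sign in 19 of 20. Equal medians raised the share above 0 from 47.7% to 53.5%; other scalings moved the median of all probe sets by less. The scanner data behind the signals were not used here.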

Other observations

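Lists of genes for protein synthesis, energy supply and protein turnover held no gene that passed. Of 41 cytosolic ribosomal protein genes on the array, 36 were above 0 and 15 were higher without overlap, beside 48.6% and 5.26% of all named genes, and the median was 0.08. Rpl13a was 1026, 1129 and 1088 after PBS and 1502, 1144 and 1298 after KA, a difference of 0.27, and Rpl26 was 1914, 1941 and 1961 against 2137, 2029 and 2075 (0.10). The differences were small. With quantile normalization the median of the list was 0.04 and with equal medians of the arrays 0.09. Oxidative phosphorylation genes had 54 of 78 above 0 with 5 higher without overlap and a median of 0.04, and proteasome genes 27 of 33 with 5 and a median of 0.03; 2 of these 5, Psmb8 (0.33) and Psmb9 (0.56), belong to the immunoproteasome and were dim.

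Antioxidant genes had 20 of 27 above 0 and 5 higher without overlap. Gpx1, which reduces hydrogen peroxide, was 322.8, 298.6 and 265.8 after PBS and 345.2, 379.4 and 351.7 after KA (0.27). Mt3 (0.16), Nfe2l2 (0.18), Prdx6 (0.15) and Txn1 (0.12) were the others, and the inducible Hmox1 was at 0.01 with overlap. Of 31 heat shock and chaperone genes, 3 were higher without overlap (Hspb1, Cryab and Cct2), and the inducible Hspa1a was at -0.10. Apoptosis genes had 2 of 26 higher without overlap, the survival genes Bcl2l1 (0.12) and Mcl1 (0.24, and 0.08 with overlap on another probe set). The dim Casp6 (-0.46) was the 1 lower. Over all named genes on the array, 5.26% were higher and 5.38% lower without overlap. Neurogenesis genes had a median of 0.00 over 28, with Dcx, a marker of young neurons, at 0.04.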
